A study of Oryza sativa Japonica Group with 6 samples.

Results

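Auxin controls gene expression through a pair of protein families. Auxin response factors (ARFs) bind promoters, and Aux/IAA proteins, encoded by the IAA genes, bind the ARFs and hold them silent with the help of TOPLESS-type corepressors. When auxin is present, the receptor complex marks Aux/IAA proteins for destruction and the ARFs are released. In the cereal grain auxin accumulates while the endosperm fills. Rice Aux/IAA and ARF genes were taken by name from the gene table: every gene whose symbol or synonym is IAA or ARF followed by a number, with a leading Os ignored. This gave 51 genes, 28 Aux/IAA and 23 ARF. Of these, 43 had a probe set (the group of probes that the array reads as 1 value) that maps to them alone, 26 Aux/IAA and 17 ARF, among 17905 genes with such a probe set. The name ARF is also used for ADP-ribosylation factors, and the gene tables give no product descriptions, so the members were told apart from these by name alone. 1 gene with the synonym ARF and no number, LOC4339157, was not taken. The remaining 8 genes, ARF5, ARF6, ARF8, ARF19, ARF21, ARF25, IAA11 and IAA29, were not analysed here for want of a probe set of their own.

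The members were chosen by name, and where a gene had several probe sets the one with the highest mean over all 6 arrays was used, which was the case for 9 members. Those means are a description of the choice and are not tested. Synonyms overlap: 8 genes carried more than 1 number, and a number that is some other gene's sole number was struck from them, in turn, until each kept 1 (the gene listed as both ARF12 and ARF8 is called ARF12, and the one listed as ARF10 and ARF18 is called ARF18).

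The samples are developing seeds of Oryza sativa Japonica Group, hybridized to Affymetrix rice arrays. The 3 arrays called additional NH4Cl are of plants whose soil was sprayed at heading with ammonium chloride, 400 mg to a container, and carry the label 15 days after flowering. The 3 control arrays came from plants without that supply, and their labels name no day of collection. All plants grew in an incubator with fertilizer at planting and a mid-season dose on day 37 from germination, and 6 plants gave seeds. The labels call the arrays biological replicates and mention pooled material without tying plants to arrays, so the p-values cover the spread between these arrays, which may be technical. The series asks how the additional fertilization changes expression in the seed. The extraction label speaks of seedlings; the tissue label, developing seed, is followed here. Among endosperm markers, the storage protein gene GLUA-2 and the starch gene GBSS1 had signals of 13.2 and 12.6 on the deposited scale. The glutelin gene GLUB-4 was at 5.36 and the root gene LSI2 was at 5.66, below the median of rice probe sets at 5.72. The other measured root gene, LSI1, was above that median at 6.64.

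The unit of the table was taken to be log2 expression, but differences between arrays in this table are very small: the median within-group standard deviation (SD) of a rice probe set was 2.13e-06. Differences here must not be read as fold changes of RNA. Each one is given on the deposited scale and divided by the within-group SD of its own probe set, which is free of that scale. In bulk seed RNA, fewer cells of a type and less RNA per cell cannot be told apart. A test was called at an adjusted p under 0.05, with limma and Benjamini-Hochberg adjustment over all 57194 rice probe sets.

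No member of either family passed this test. With additional NH4Cl the mean was lower for 14 of 17 ARF genes and for 19 of 26 Aux/IAA genes as deposited, and 5 of each family were lower after centring the arrays on their medians. Over all genes with 1 probe set each, 55.3% were lower and 44.6% higher as deposited, and over all rice probe sets 49.5% and 50.4%; 38.3% of rice probe sets were lower after quantile normalization and 4.41% after centring. The median difference was -1.45 within-group SDs for the ARFs, -0.35 for the Aux/IAAs and -0.16 over all those genes. Both family medians turned positive after median centring, at 2.22 for the ARFs and 2.55 for the Aux/IAAs. After quantile normalization 8 ARFs and 15 Aux/IAAs were lower, with medians of 0 and -0.82. No p-value is given for a family or for the difference between the families, because the genes were chosen with earlier results of these data known.

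Across all rice probe sets 4 passed, or 0.00699% (0.0223% of genes with 1 probe set each), all of them lower and none a member. At an unadjusted p under 0.05, 5 ARFs and 3 Aux/IAAs were lower and none was higher. Among all genes with 1 probe set each, 10.8% were lower and 6.22% higher at that level, and among all rice probe sets 5.96% and 5.09%. The arrays of the 2 groups did not overlap, with additional NH4Cl below, for 4 ARFs and 4 Aux/IAAs, against 14.2% of all genes and 8.99% of rice probe sets. They did not overlap in the other direction for 1 ARF and 2 Aux/IAAs, against 8.8% and 8.42%. The Aux/IAA counts of 4 of 26 and 2 of 26 are near these backgrounds, and the ARF counts rest on 17 genes. As deposited, the plot of each member's difference has 14 of 17 ARFs and 19 of 26 Aux/IAAs left of 0, with 2 Aux/IAAs far from the rest. After median centring 5 of each family were lower.

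**Figure D1:**
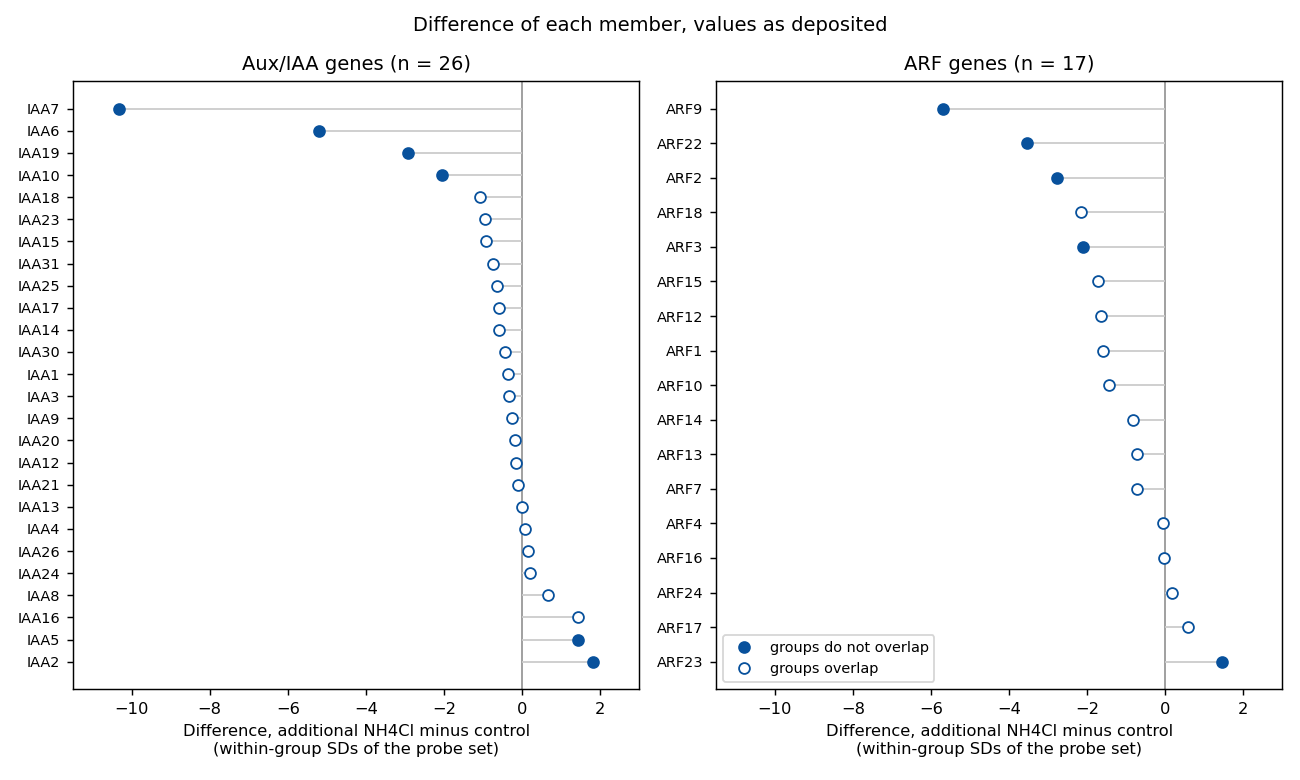
Difference between additional NH4Cl and control for each of 26 Aux/IAA genes (left) and 17 ARF genes (right), in within-group SDs of the probe set, values as deposited; filled points mark genes whose 3 arrays per group do not overlap. IAA7 at -10.3 and IAA6 at -5.20 stand apart among the Aux/IAAs, and 14 of 17 ARFs lie below 0; after centring the arrays on their medians 5 of 17 ARFs and 5 of 26 Aux/IAAs lie below 0.

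IAA7 (LOC4328796), an Aux/IAA repressor, had the smallest p of all members. Its values were 5.72961, 5.73015 and 5.72906 with additional NH4Cl and 5.73547, 5.73457 and 5.73471 in control. All 3 arrays with additional NH4Cl lay below all 3 controls, with a gap several times the spread inside either group. The difference was -0.00531 (SE 0.00042, n = 3 per group), or -10.3 within-group SDs, at an adjusted p of 0.0959. Of the 17905 genes 37 had a smaller p and 265 a larger absolute difference. IAA7 was lower under each of the 3 scalings, with adjusted p of 0.00528 once quantile normalized and 0.00759 once centred, settings where 7.13% and 89.8% of rice probe sets passed. Over all alternatives its adjusted p ran from 0.00528 to 0.501. Its mean of 5.73 lies below the highest of the 64 reporter control probe sets, at 6.07.

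IAA6 (LOC4326541), studied in rice for drought tolerance and tiller outgrowth, showed the same order. With additional NH4Cl its arrays stood at 5.91758, 5.91766 and 5.91734, and in control at 5.91875, 5.91853 and 5.91831. The groups did not overlap. The difference was -0.00101 (SE 0.000159; -5.20 within-group SDs) at an adjusted p of 0.165, and it stayed negative under each of the 3 scalings, with an adjusted p of 0.0387 after quantile normalization and 0.00759 after median centring, in a range of 0.00759 to 0.501 over all alternatives. This mean of 5.92 also lies below the highest reporter.

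IAA19 (LOC4339588) and IAA10 (LOC4331149) were the other Aux/IAAs with all 3 arrays below the controls. IAA19 stood at 7.52802, 7.52800 and 7.52797 with additional NH4Cl and at 7.52811, 7.52805 and 7.52813 in control. Its difference was -9.83e-05 (SE 2.75e-05, -2.92 within-group SDs, adjusted p of 0.311). With 1 array left out it ran from -6.06 (without control replicate 2) to -2.43 within-group SDs. The difference was positive after quantile normalization and after median centring. IAA10, the repressor that a protein of rice dwarf virus binds and stabilizes, stood at 8.51752, 8.51776 and 8.51791 against 8.51846, 8.51890 and 8.51799 in control. The highest treated array came close to the lowest control. The difference of -0.000721 (SE 0.000288, -2.05 within-group SDs, adjusted p of 0.458) was negative under each of the 3 scalings. It ran from -3.93 (without control replicate 3) to -1.63 within-group SDs with 1 array left out. Both means lie above the highest reporter, unlike those of IAA7 and IAA6.

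On the higher side, the 4 Aux/IAAs with the smallest p were IAA2, IAA5, IAA16 and IAA8, and none passed. IAA2 (LOC4326775) stood at 6.03631, 6.03662 and 6.03680 against 6.03626, 6.03631 and 6.03618 in control. Its lowest treated array lay above the highest control only in the sixth decimal, at 6.036308 against 6.036305, and the difference was 0.000328 (SE 0.000148; 1.81 within-group SDs; adjusted p of 0.51). Leaving out 1 array moved it between 1.44 (without control replicate 3) and 5.15 within-group SDs (without additional NH4Cl replicate 1). IAA5 (LOC4325515) was higher by 0.000151 (1.43 within-group SDs; adjusted p of 0.616) without overlap, and lower after quantile normalization. IAA16 and IAA8 differed by 1.77e-06 and 2.39e-05, with overlapping groups. IAA16, at a mean of 5.22, and IAA8, at 5.46, lie below the highest reporter, as does IAA2 at 6.04.

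Members named for a high signal of their probe set differed little. IAA17 and IAA15 had means of 9.18 each, IAA1, studied in rice for its effect on auxin and brassinosteroid responses, had 8.84, and IAA21 had 8.81. Their differences were -2.09e-05, -6.34e-06, -2.11e-05 and -7.86e-06, each under 1 within-group SD, with adjusted p between 0.787 and 0.994. All 4 turned positive after median centring, IAA1 and IAA17 also after quantile normalization, and IAA17 is measured by a probe set that can bind several transcripts. A further probe set of IAA1, at a mean of 5.79 below the highest reporter, was higher by 1.59e-06 (0.71 within-group SDs), so its probe sets disagree. IAA9 had the third largest difference of its family at -0.000983, but its arrays spread from 6.23085 to 6.23859 with additional NH4Cl and from 6.23291 to 6.23960 in control. That difference is -0.27 within-group SDs, well inside the replicate spread.

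As deposited, 14 of the 16 Aux/IAAs above the highest reporter were lower and 5 of the 10 below it. After quantile normalization these counts were 10 and 5, and after median centring 3 and 2. IAA7 and IAA6 belong to those below it. IAA30 and IAA31, neighbours in the gene order of the RefSeq table, differed by -4.31e-06 and -5.23e-05, at -0.45 and -0.76 within-group SDs, and both were positive after median centring.

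Among the ARFs, ARF9 (LOC4335934) had the smallest p. Its values were 6.287692, 6.287677 and 6.287691 with additional NH4Cl and 6.287721, 6.287722 and 6.287725 in control. The groups were separate and the controls lay within a few millionths of each other. The difference was -3.62e-05 (SE 5.2e-06; -5.68 within-group SDs) at an adjusted p of 0.156, and -15.8 within-group SDs without additional NH4Cl replicate 2. No difference was left after quantile normalization and it was positive after median centring, at 8.63e-05, since the shift of that scaling is larger than the difference.

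ARFs are textbook activators where the middle of the protein is rich in glutamine and repressors otherwise, and several are cut by small RNAs. The repressors ARF10, ARF18 and ARF22 are targets of miR160, a microRNA. Of them, ARF22 (LOC4348918) stood at 8.53788, 8.53822 and 8.53816 with additional NH4Cl and at 8.53855, 8.53871 and 8.53854 in control. The groups did not overlap. The difference was -0.000514 (SE 0.000119; -3.53 within-group SDs; adjusted p of 0.248), negative under each of the 3 scalings. ARF18, whose miR160-resistant form disturbs leaf and seed development in rice, differed by -4.58e-06 (-2.15 within-group SDs, adjusted p of 0.439). Its control replicate 2 at 7.0175041 lay just below additional NH4Cl replicate 2 at 7.0175042. Its difference ran from -5.83 (without control replicate 2) to -1.72 within-group SDs with 1 array left out. ARF10 differed by -2.96e-06 (-1.45 within-group SDs) at a mean of 5.65, below the highest reporter. Thus 3 of 3 measured miR160 targets were lower as deposited, as were 55.3% of all genes with 1 probe set each. After quantile normalization ARF18 was higher, and after median centring ARF22 alone was lower. ARF8, a further miR160 target, had no probe set of its own.

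ARF2, ARF3, ARF14 and ARF15 are targets of the trans-acting small RNAs called tasiRNA-ARF, and belong to the class of ETTIN, an Arabidopsis gene of flower patterning. ARF2 (LOC4325895) stood at 7.12208, 7.12208 and 7.12202 with additional NH4Cl, and at 7.12260, 7.12234 and 7.12290 in control. The treated arrays were tightly grouped below widely spread controls, and the difference was -0.000551 (SE 0.000162, -2.77 within-group SDs, adjusted p of 0.333). Leaving out 1 array moved it between -5.6 (without control replicate 2) and -2.33 within-group SDs. A further probe set of ARF2, at a lower mean of 6.55, showed 2.8e-06 (0.19 within-group SDs), so the probe sets disagree. ARF3 (LOC4327014) stood at 8.617870, 8.617895 and 8.618115 against 8.618288, 8.618116 and 8.618194, groups that met but did not overlap, and differed by -0.00024 (-2.12 within-group SDs; adjusted p of 0.442). ARF15 and ARF14 differed by -2.57e-05 and -8.21e-06, at -1.71 and -0.82 within-group SDs. ARF2 and ARF3 were negative under each of the 3 scalings, while ARF14 had no difference left and ARF15 was positive after quantile normalization, and both were positive after centring.

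**Figure D2:**
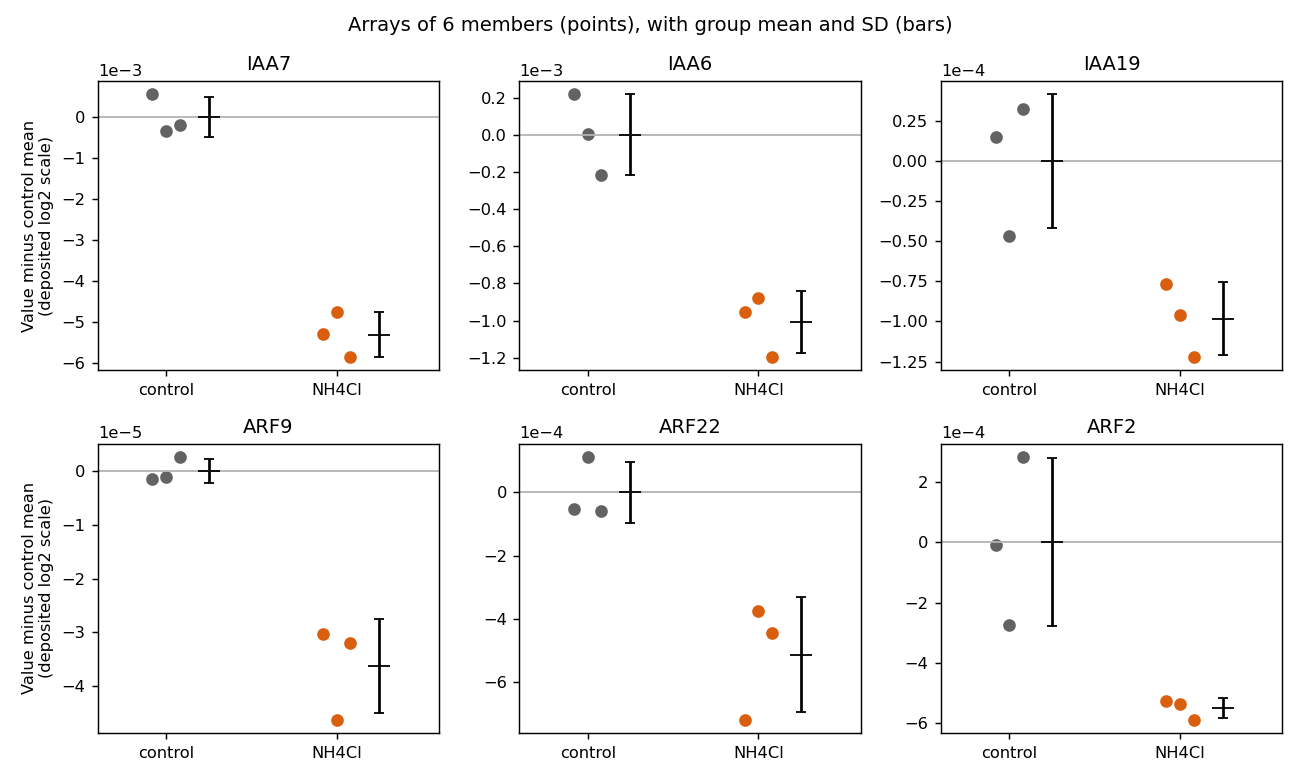
Array values of IAA7, IAA6, IAA19, ARF9, ARF22 and ARF2 minus the control mean, on the deposited log2 scale (vertical axis, scaled by the power of 10 above each panel), for control and additional NH4Cl; points are arrays and bars give the group mean and SD, n = 3 each. The genes shown are the 3 lower members of each family with the smallest p, so their common direction follows from the choice. In all 6 genes the treated arrays lie below the controls as deposited. IAA19 was higher after quantile normalization and median centring, and ARF9 after median centring.

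Activators were thinly covered: of 8 such genes by name, 3 had a probe set of their own. ARF12, studied in rice root growth and iron uptake and a target of miR167, differed by -0.00019 (-1.64 within-group SDs), and was positive after quantile normalization. ARF17, a further miR167 target, differed by 8.39e-06 (0.58 within-group SDs), with no difference left after quantile normalization. ARF16, studied in rice phosphate responses, differed by -6e-06 (-0.03 within-group SDs), and was positive under both other scalings. In all 3 the groups overlapped, and the median over them was -0.03 within-group SDs.

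ARF4, a negative regulator of grain size in rice, was named for its signal, a mean of 9.29. Its arrays stood at 9.287612, 9.287593 and 9.287600 with additional NH4Cl and at 9.287600, 9.287602 and 9.287604 in control. The treated arrays lay on both sides of the controls, and the difference was -3.55e-07 (-0.05 within-group SDs; adjusted p of 0.999), positive after median centring. ARF1, at 8.87, differed by -0.000279 (-1.60 within-group SDs; adjusted p of 0.567), with its control replicate 1 above the other arrays. ARF23 and ARF24, which in rice act together on the gene of an actin-organizing formin, were among the 3 higher ARFs. ARF23 stood at 8.831714, 8.831692 and 8.831831 against 8.831679, 8.831662 and 8.831665. Those groups did not overlap, and ARF23 differed by 7.67e-05 (1.45 within-group SDs, adjusted p of 0.613). Its difference ran from 1.2 to 2.95 within-group SDs (without additional NH4Cl replicate 3) with 1 array left out. It was positive under each of the 3 scalings, of which median centring could not make it negative. ARF24 differed by 4.81e-05 (0.18 within-group SDs) with overlapping groups.

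The heat map of members by array shows how far single arrays carried these patterns. Each value there is the deviation from the midpoint of both group means. For the ARFs the median deviation was -1.05, -0.82 and -0.14 within-group SDs on additional NH4Cl replicates 1, 2 and 3, and 0.66, -0.21 and 1.14 on the controls. Control replicate 2 lay below additional NH4Cl replicate 3, so the family's medians overlap between the groups. For the Aux/IAAs the medians were -0.66, 0.10 and -0.49 with additional NH4Cl, and -0.28, 0.23 and 0.53 in control, which overlap more. Over all genes with 1 probe set each they lay between -0.34 and -0.005 with additional NH4Cl and between 0.045 and 0.12 in control. Leaving out each array in turn left 13 to 15 of 17 ARFs and 14 to 21 of 26 Aux/IAAs lower, the latter count being 14 without additional NH4Cl replicate 1. No member passed in any of these 6 fits.

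**Figure D3:**
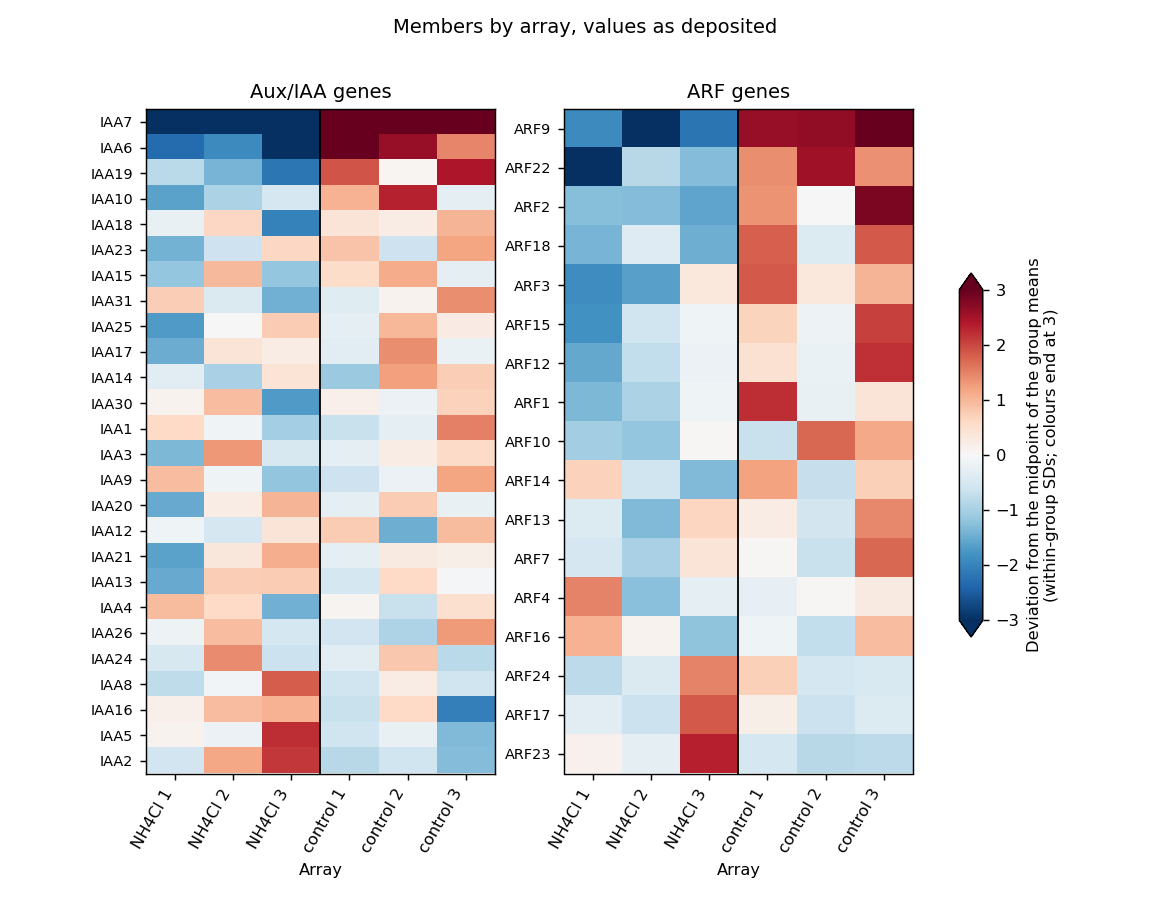
Deviation of each array from the midpoint of the group means, in within-group SDs of the probe set (colour, ending at 3), for 26 Aux/IAA genes (left) and 17 ARF genes (right), values as deposited; columns are arrays, and rows are ordered by the difference between groups. Among the rows, 8 Aux/IAA and ARF genes separate the groups with additional NH4Cl below and 3 (IAA2, IAA5, ARF23) with it above; additional NH4Cl replicate 3 and control replicate 2 are mixed for the ARFs, with median deviations of -0.14 and -0.21. Centring the arrays on their medians makes 12 of 17 ARF and 21 of 26 Aux/IAA differences positive.

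The direction as deposited was kept by 25 of the 43 members after quantile normalization and by 20 after median centring. By construction, median centring added 0.000123 to a difference, and 31 of the 43 members had a smaller absolute difference than that. Lower under each of the 3 scalings (as deposited, quantile normalized, median centred) were 4 Aux/IAAs, IAA6, IAA7, IAA9 and IAA10, and 4 ARFs, ARF1, ARF2, ARF3 and ARF22. Higher under each were IAA2, IAA8, IAA26, ARF23 and ARF24. Since centring adds a positive amount, it cannot make a higher member lower, and IAA26 differed by only 4e-08 as deposited. After quantile normalization 4 members passed, all lower: IAA6, IAA7, IAA23 and ARF7. As deposited, IAA23 (-0.94 within-group SDs, adjusted p of 0.778) and ARF7 (-0.72 within-group SDs, adjusted p of 0.852) had overlapping groups. Both were positive after median centring, and the probe set of IAA23 can bind several transcripts. A further IAA23 probe set, at a mean of 5.90 below the highest reporter, was lower without overlap (-2.93 within-group SDs, adjusted p of 0.31). It also passed after quantile normalization, at an adjusted p of 0.0406, and was positive after median centring. Another, at a mean of 5.33, differed by -0.12 within-group SDs with overlapping groups. After quantile normalization 3.49% of rice probe sets were called lower and 3.64% higher. After median centring 28 of 43 passed, 14 Aux/IAAs and 9 ARFs of them higher, where 88.3% of all rice probe sets were called higher and 1.49% lower. The 5 called lower were IAA6, IAA7, IAA10, ARF2 and ARF22.

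**Figure D4:**
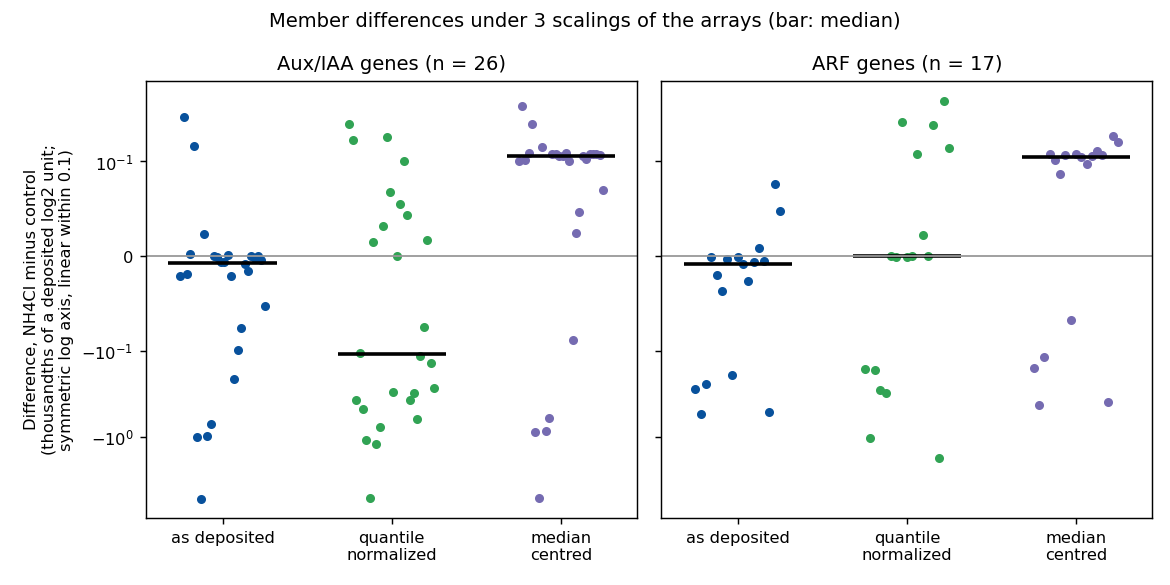
Difference between additional NH4Cl and control for the 26 Aux/IAA (left) and 17 ARF genes (right) under 3 scalings of the arrays, in thousandths of a deposited log2 unit on a symmetric log axis; points are genes, spread sideways for legibility, and bars are medians. Most genes sit near 0 as deposited and near the added shift of 0.000123 after median centring, where 5 genes of each family stay below 0.

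The other auxin genes found by name number 19, taken from a list of synthesis, transport, receptor, corepressor and response genes. As deposited none passed, none had an unadjusted p under 0.05, and 8 of 19 were lower. After quantile normalization PIN2 passed, higher by 6.69e-05 at an adjusted p of 3.85e-08, with almost no spread left inside its groups. Most passed after median centring, where 89.8% of rice probe sets did. No gene of the table matched a receptor name. Both TOPLESS-related corepressors were lower: TPR2 by -3.9e-05 (-1.90 within-group SDs; adjusted p of 0.488; a probe set that can bind several transcripts) without overlap of the groups, and TPR3 by -2.94e-05 (-0.27 within-group SDs). Both were positive after median centring, and after quantile normalization TPR2 had no difference left and TPR3 was positive. For auxin synthesis, the tryptophan aminotransferase gene TAR2 was higher by 0.000965 (1.02 within-group SDs; adjusted p of 0.754) and the flavin monooxygenase gene YUCCA1 by 9.13e-07, the latter negative after quantile normalization. Of 5 PIN genes, which encode auxin transport proteins, 4 were higher. PIN4 differed by 0.015 (1.56 within-group SDs, adjusted p of 0.578). PIN9 differed by -4.92e-06 (-1.99 within-group SDs, adjusted p of 0.47) and was positive under both other scalings.

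Early auxin response genes showed no common direction, with 5 of 10 lower. They comprise SAUR39 and GH3 genes, most of which encode enzymes that join auxin to amino acids. GH3.4 and SAUR39 were higher by 1.63e-06 (1.13 within-group SDs) and 2.1e-06 (1.03), and GH3.11 was lower by -3.94e-06 (-2.06 within-group SDs; adjusted p of 0.459) without overlap; GH3.11 was positive under both other scalings, and GH3.4 negative after quantile normalization. GH3.7 differed by -0.000101 (-0.74 within-group SDs), positive after centring. GH3.8, an auxin-conjugating enzyme gene, differed by 4.79e-05 (0.74 within-group SDs), negative after quantile normalization.

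Tissue markers are given by direction and summed signal only. Over all genes with 1 probe set each, 44.6% were higher as deposited. All 5 measured markers of green tissue were higher with additional NH4Cl, although their summed signal overlapped, at 44.708 to 44.713 against 44.706 to 44.710 in control. Of the 8 measured endosperm markers 4 were lower, and their summed signal was lower without overlap, at 90.676 to 90.685 against 90.703 to 90.713. That gap is 1 gene, the starch synthase gene SSI, at 9.865 against 9.894. Without SSI, a choice made after seeing the values, the sums of the other 7 overlapped, at 80.81498 to 80.814985 against 80.814973 to 80.814983. Embryo and aleurone markers were higher for 4 of 7, with overlapping sums. Both measured root markers were higher by very little, LSI1 at 6.642452 against 6.642443 in control and LSI2 at 5.656434 against 5.656433. No marker was at 0, a value that this scale does not contain. These directions are as deposited. The part of tissue composition in the member differences was not tested.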

How the data were processed

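RNA of 6 developing seed samples was hybridized to Affymetrix rice arrays, per the labels. The authors deposited 1 value per probe set and array with up to 9 decimals, read here as log2 expression from its range. The labels name neither the log base nor the summarization or normalization. The array medians lay between 5.71845 and 5.7186, and the number of arrays limits the precision. From the deposited table, 57194 rice probe sets went into lmFit and eBayes of limma 3.58.1 (R 4.3.3) without a block, leaving out 187 control probe sets, with two-sided p-values, Benjamini-Hochberg adjustment and no filter on low values. Printed SEs are unmoderated. The script was tested on simulated data.

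Gene names came from GEO's platform annotation joined to the RefSeq table of assembly ASM3414082v1: 22436 had 1 gene, 95 several, and 34663 rice probe sets are unnamed here. No sequences or coordinates are printed, since the files used hold no sequence and the authors' build is not known. The members, lists and tests were chosen with earlier results of these data known. Named per family were members past the threshold, the 4 with the smallest p in each direction, the 4 with the highest mean and the 3 with the largest difference; other members appear by class or count. Of the other auxin genes, the 4 with the smallest p in each direction were named; TPR3, YUCCA1 and GH3.8 were added after their values were seen. Also chosen after seeing the tables were the rule for genes with several numbers, the list of activating ARFs, and leaving out LAX1, LAX2 and a gene also called ASP1, judged to be other genes. The alternatives were 14 fits: a replicate block, trended robust moderation, unequal variances, both rescalings, 3 choices of probe sets and each array left out.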

Additional observations from a re-analysis of the deposited data

How the results depend on the processing

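In 14 alternative fits the number of members past the threshold was 0, except 4 after quantile normalization and 28 after median centring. Rice probe sets past the threshold numbered 2 with the replicate block, 2 with trended robust moderation, 0 with unequal variances, 4079 after quantile normalization, 51354 after median centring, 32 among probe sets at or above the median level, and 0 to 1 with an array left out. Lower ARFs numbered 8 after quantile normalization, with a median of 0 within-group SDs, and 5 after centring, with a median of 2.215. Lower Aux/IAAs numbered 5 after centring, with a median of 2.551. By its construction, centring adds the same amount to every difference. With the replicate block the medians were -0.310 for the Aux/IAAs and -1.613 for the ARFs, and no member's call changed; the replicate numbers carry no stated pairing, and same-numbered arrays correlated at -0.0616, 0.0449 and -0.0775 in their deviations, so not every sample correlated best with its own number.

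Of the 23 named members, some changed direction. After quantile normalization these were IAA1 (1.14 within-group SDs), IAA5 (-1.42), IAA17 (1.63), IAA19 (0.156) and ARF18 (0.809). After centring they were IAA1 (1.15), IAA15 (3.82), IAA17 (2.64), IAA19 (0.404), IAA21 (1.57), ARF4 (3.55), ARF9 (2.52), ARF14 (3.13) and ARF18 (3.52). With 1 array left out, IAA1 ran from -0.794 to 0.442, IAA8 from -0.181 to 1.39, IAA9 from -0.9 to 0.3, IAA17 from -0.885 to 0.0085, IAA21 from -0.844 to 1.68, ARF4 from -1.82 to 0.748, ARF17 from -0.507 to 1.1 and ARF24 from -0.884 to 0.628. Without changing direction, IAA15 ran from -2.87 (without additional NH4Cl replicate 2) to -0.54. IAA16 ran from 1.11 to 2.96 (without control replicate 2), and ARF14 from -1.62 (without additional NH4Cl replicate 1) to -0.385, also without changing direction. The cause of the changes under quantile normalization was not tested. With an array left out, family medians ran from -0.573 (without control replicate 1) to -0.172 (without control replicate 3) for the Aux/IAAs and from -1.743 to -1.107 for the ARFs. Without probe sets that can bind several transcripts IAA17 has no value. Signal near that of reporter probe sets limits 10 Aux/IAAs and 2 ARFs.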
